A study of Mus musculus with 12 samples.

Results

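The genes described are those of glutathione use and supply in epididymal white adipose tissue (eWAT) of the mouse. They were taken by symbol from an FPKM table of 23474 genes: the cytosolic and mitochondrial glutathione transferases (Gst), the microsomal glutathione transferases (Mgst), the glutathione peroxidases (Gpx), and Gclc, Gclm, Gss and Gsr, which make and recycle glutathione. The rule uses gene symbols and no measured value. This gave 36 genes, of which 25 were transferases, 7 were peroxidases and 4 belonged to synthesis and recycling.

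The table held 12 RNA sequencing libraries, 3 in each of 4 diet groups. All mice were male C57BL/6J, bought from a supplier, kept 1 per cage, put on their diets at 5 weeks of age and fed them for 12 weeks, so that tissue was taken at 17 weeks. The ND group ate a normal diet and the HFD group a high-fat diet. The GT group ate the same high-fat diet with 0.25% (w/w) of an ethanol extract of green tea, and the TJ group ate it with 3% (w/w) of Taeeumjowuitang (Taeeumjowitang in the sample labels), a herbal formula. The labels describe all 4 groups as having 10 mice each, and the study's methods describe only the HFD and TJ groups. The study's methods say that the 3 mice sequenced from the HFD and TJ groups were drawn at random, and do not describe the ND and GT mice. P-values therefore measure the spread between 3 libraries of a group.

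Glutathione is a small thiol that cells use against peroxides and reactive lipids. Glutamate-cysteine ligase (catalytic subunit Gclc, modifier subunit Gclm) carries out the rate-limiting step of its synthesis, glutathione synthetase (Gss) finishes it, and glutathione reductase (Gsr) restores it from its oxidised form. Transferases join glutathione to electrophiles, including the aldehydes that form when lipids are oxidised, while peroxidases spend it to reduce hydrogen peroxide and lipid hydroperoxides. Many of these genes are known targets of the transcription factor NFE2L2 (NRF2), which binds the antioxidant response element together with a small Maf protein.

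Some libraries held transcripts of male reproductive tissue, which lies next to this fat depot. The summed FPKM of 10 germ cell markers (Prm1, Tnp1 and others) was 99169 in ND replicate 1, 3036 in ND replicate 3, 2086 in HFD replicate 1 and between 0.685 and 168 in the other libraries. The sum of 10 epididymis markers (such as Gpx5, Lcn8, Crisp1) was 21423 in ND replicate 1 and 1287 in HFD replicate 2, where Crisp1 gave 1172, and at most 15.3 elsewhere. ND replicate 1 also had the lowest adipocyte marker sum, 7565 against 17980 to 71904 in the other libraries, and an approximate depth of 10.7M fragments against 14.1M to 19.5M. For this reason the counts of members called and the main differences that rest on the ND group are given with and without this library.

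In eWAT outside ND replicate 1, the most abundant members were Mgst1, Gpx1 and Gpx4 (all in FPKM, which is scaled to transcript length). Mgst1, a membrane-bound transferase that also reduces lipid peroxides, ranged from 416 in HFD replicate 3 to 1682 in TJ replicate 2. Gstm1 had the highest mean of the mu class, at 196 to 549 FPKM, although Gstm5 exceeded it in ND replicates 1 and 3, and Gstz1, which acts in tyrosine breakdown, reached 201 to 368 FPKM outside ND replicate 1. The 4 genes of synthesis and recycling were lower, between 3.27 and 35.7 FPKM in every library. At the other end, Gpx2, Gsta1, Gstm3 and Gstp3 had a mean under 1 FPKM in each comparison and were not tested in any. Their highest values in any library were 0.115, 0.494, 0.296 and 2.23 FPKM. Gpx6 and Gsta2 also fell under 1 FPKM in the comparisons without ND, and Gstt4 in TJ against GT. The plot of levels by library shows 16 members side by side.

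**Figure D1:**
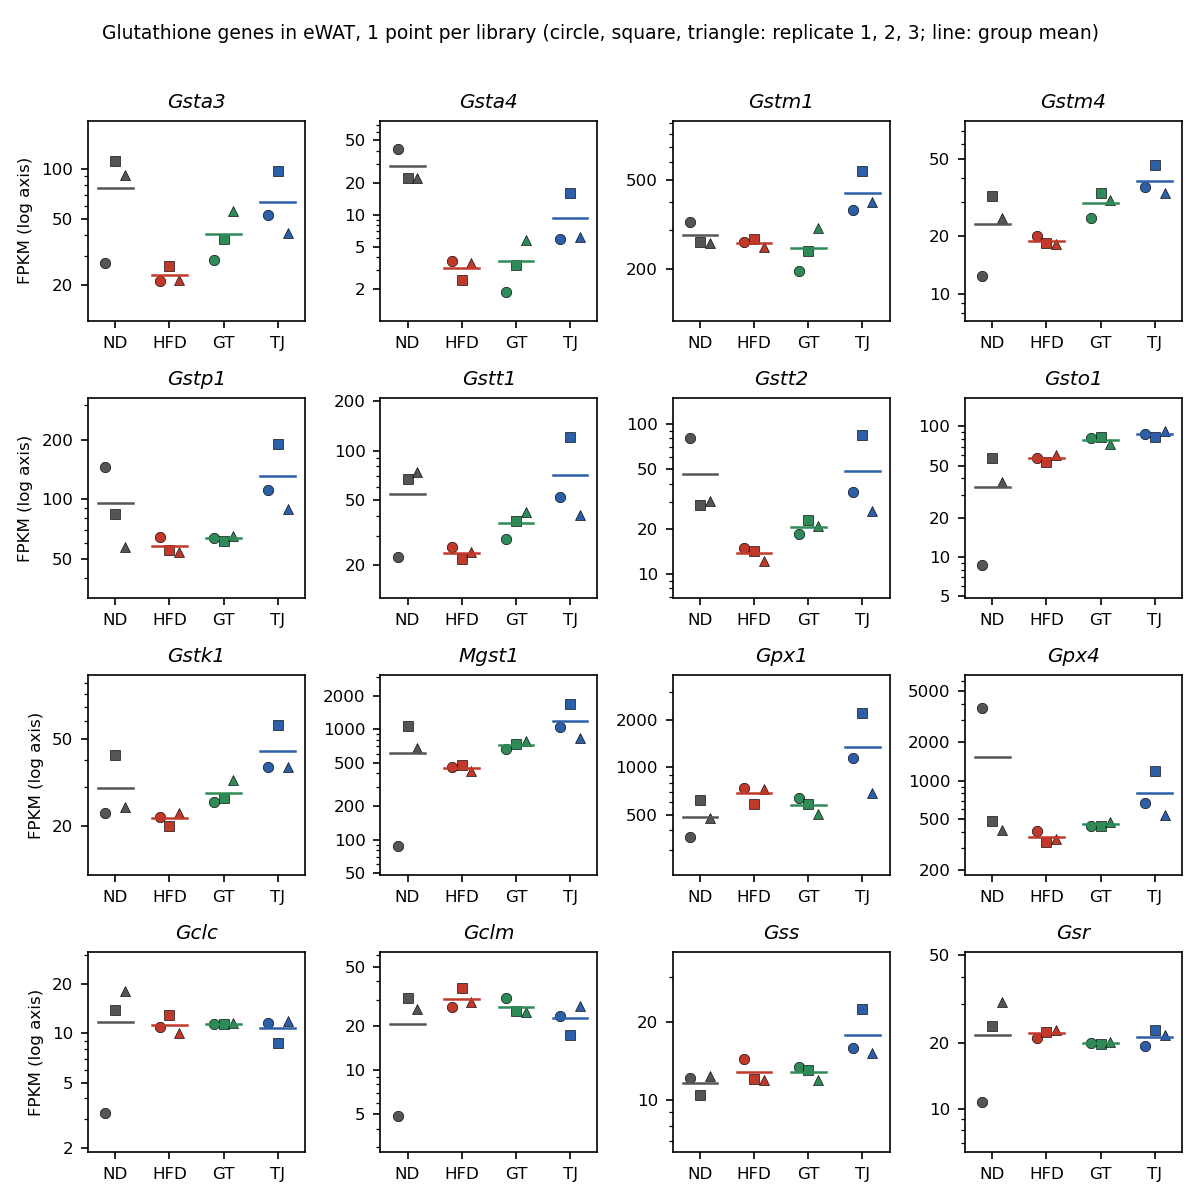
FPKM (log axis) of 16 glutathione genes in the 4 diet groups, with 1 point per library (circle, square and triangle for replicates 1, 2 and 3) and a line at the group mean. For Gsta3, Gstt1, Gstt2 and Mgst1 the 3 TJ libraries all lie above the 3 HFD libraries, while Gclc, Gclm and Gsr overlap between HFD and TJ.

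To show where an antioxidant response core lies near the members, the 9-letter core TGACNNNGC was searched on both strands of RefSeq promoter windows (GRCm38.p6, 250 bases before to 50 after a start, 300 bases each). Windows were found for 32 of the 36 members and 5 of these held the core, which is 15.6%, against 14.0% of all 27025 genes with a window. Counted by window, 11.4% of the members' windows held it, against 12.4% of all windows. Gclc, Gsr, Gsta4 and Gstt2 had no entry. The stretches below run 5′ to 3′ on the strand of the gene, with the core in capitals and 30 bases on each side. Gclm (chr3:122245393-122245461, plus strand) holds the core on its reverse strand, beginning 134 bases before the start. Gsta3 (chr1:21240434-21240502, plus strand) holds it 121 bases before the start. Mgst1 (chr6:138140441-138140509, plus strand) holds it on the reverse strand, 56 bases before the start. Gstm5 (chr3:107895782-107895850, plus strand) has it 42 bases before the start, and Gstm7 (chr3:107931705-107931773, minus strand) 129 bases before it. These starts are those of the RefSeq windows. The Mgst1 and Gstm7 stretches lie inside the genes as annotated in GENCODE, where Mgst1 begins at chr6:138140316 and Gstm7 at chr3:107931817. Another Gstm7 window (chr3:107931768-107932067) holds no core. A match of these letters is a description of the window and not a measured binding site.
Gclm: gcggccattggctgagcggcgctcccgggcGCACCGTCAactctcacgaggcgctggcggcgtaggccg
Gsta3: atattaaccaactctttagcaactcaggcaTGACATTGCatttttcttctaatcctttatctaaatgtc
Mgst1: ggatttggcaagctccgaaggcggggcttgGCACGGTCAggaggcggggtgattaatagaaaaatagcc
Gstm5: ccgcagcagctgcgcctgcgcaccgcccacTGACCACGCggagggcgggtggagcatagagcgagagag
Gstm7: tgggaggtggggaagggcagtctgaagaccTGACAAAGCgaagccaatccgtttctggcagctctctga

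The first comparison was HFD against ND, which asks how the high-fat diet changed these genes. Gsta4, which conjugates 4-hydroxynonenal (an aldehyde from oxidised lipid), was much lower in the HFD group. Its level was 41.2, 22.4 and 22.4 FPKM in the ND libraries and 3.64, 2.42 and 3.54 FPKM in the HFD libraries, so the groups lay far apart. On the log2(FPKM + 1) scale the difference was -2.78 ± 0.36 (SE), with a limma adjusted p of 0.0278. It was the only one of 32 tested members called, meaning an adjusted p under 0.05 together with a change of 1.5-fold or more. None was called higher. Over all 14430 genes tested, 1.73% were called higher and 0.0416% lower. An unadjusted p under 0.05 was reached by 4 members, near the share of 11.6% of all genes. All HFD libraries lay below all ND libraries for 7 members, against 5.89% of all genes tested. The median difference of the members was -0.61, against 0.07 for all genes tested, and it was -0.036 with 15 members above 0 once the trend with transcript length was removed. Deviations from the group means correlated at 0.55, 0.34 and 0.12 between same-numbered libraries here, although no label names anything they share. The pair at 0.55, replicate 1 of ND and HFD, both had raised germ cell markers. A fit with the replicate number as a block was also made. It called 0 members (8 at an unadjusted p under 0.05, against 15.5% of all genes) and 0 genes in all. The call of Gsta4 was also lost without any 1 of the other 5 libraries, and with the length trend removed (adjusted p = 0.062).

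Without ND replicate 1, 6 of 30 tested members were called lower in the HFD group and 0 higher, against 4.34% and 11.0% of all 13661 genes tested. This fit had no replicate block, and no blocked fit was made without that library. An unadjusted p under 0.05 was reached by 10 members, near the share of 30.8% of all genes. The median of the members was -0.55 (all genes -0.02), and HFD lay below the other ND libraries without overlap for 16 members, against 19.2% of all genes tested. The 6 called were Gsta4, Gsta3, Gstt1, Gstt2, Gstt3 and Mgst1, from the alpha, theta and microsomal classes. Gsta3 measured 27.0, 112 and 91.4 FPKM in the ND libraries, with replicate 1 first, and 21.2, 26.0 and 21.5 FPKM in the HFD libraries. ND replicate 1 thus sat next to the HFD values and the other ND libraries were several times higher. The difference was -1.48 ± 0.57 (SE) with all 3 ND libraries (limma adjusted p = 0.399) and -2.10 ± 0.16 (SE) without replicate 1 (adjusted p = 0.00172).

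Gstt1, a theta class transferase that acts on small halogenated molecules, showed the same arrangement. It gave 22.5, 67.2 and 73.9 FPKM in ND and 25.7, 21.9 and 24.0 FPKM in HFD, and the difference without ND replicate 1 was -1.53 ± 0.12 (SE) (limma adjusted p = 0.00221). Gstt2 and Gstt3, its neighbours on chromosome 10 (Gstt3 at chr10:75774115-75781414, Gstt1 at chr10:75783813-75798584 and Gstt2 at chr10:75831114-75837424 in GRCm38, all minus strand), differed from it in that ND replicate 1 was their highest ND library. Gstt2 was at 80.2, 29.0 and 30.6 FPKM in ND and 14.8, 14.1 and 12.1 FPKM in HFD, and Gstt3 at 25.0, 17.7 and 18.4 and 8.94, 8.31 and 8.08 FPKM. The groups did not overlap for either gene. Their differences without ND replicate 1 were -1.07 ± 0.14 (SE) (limma adjusted p = 0.00800) and -1.01 ± 0.13 (SE) (adjusted p = 0.00760). With all 3 ND libraries the adjusted p-values were 0.233 and 0.135.

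Mgst1 changed direction with that library. It gave 88.3, 1072 and 682 FPKM in ND, where replicate 1 was the lowest of all 12 libraries, and 458, 476 and 416 FPKM in HFD. The difference was 0.16 ± 0.95 (SE) with the library (limma adjusted p = 0.933) and -0.93 ± 0.22 (SE) without it (adjusted p = 0.0463), and it was -0.071 with the library under median-of-ratios scaling. In a fit of all 11 libraries other than ND replicate 1, 5 of the 6 members were still called lower, against 6.44% of all genes, and Gstt2 was not. Macrophage marker sums were higher in HFD, at 3824 to 5388 FPKM against 442 to 565 in the other ND libraries (4 of 10 markers called higher with all ND libraries). Adipocyte marker sums were 17980 to 20533 FPKM in HFD and 26687 to 38091 in the other ND libraries. Adipoq, Cfd, Cidec, Lipe, Plin1, Plin4, Pnpla2 and Retn were lower in every HFD library than in the other ND libraries. Fabp4 overlapped and Lep was higher in HFD. With all ND libraries, and so with the adipocyte-poor replicate 1, 1 of 10 markers was called lower and their median difference was -0.11. The part of these shifts in the result was not tested, and in bulk tissue fewer cells of a type and less RNA per cell cannot be told apart.

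**Figure D2:**
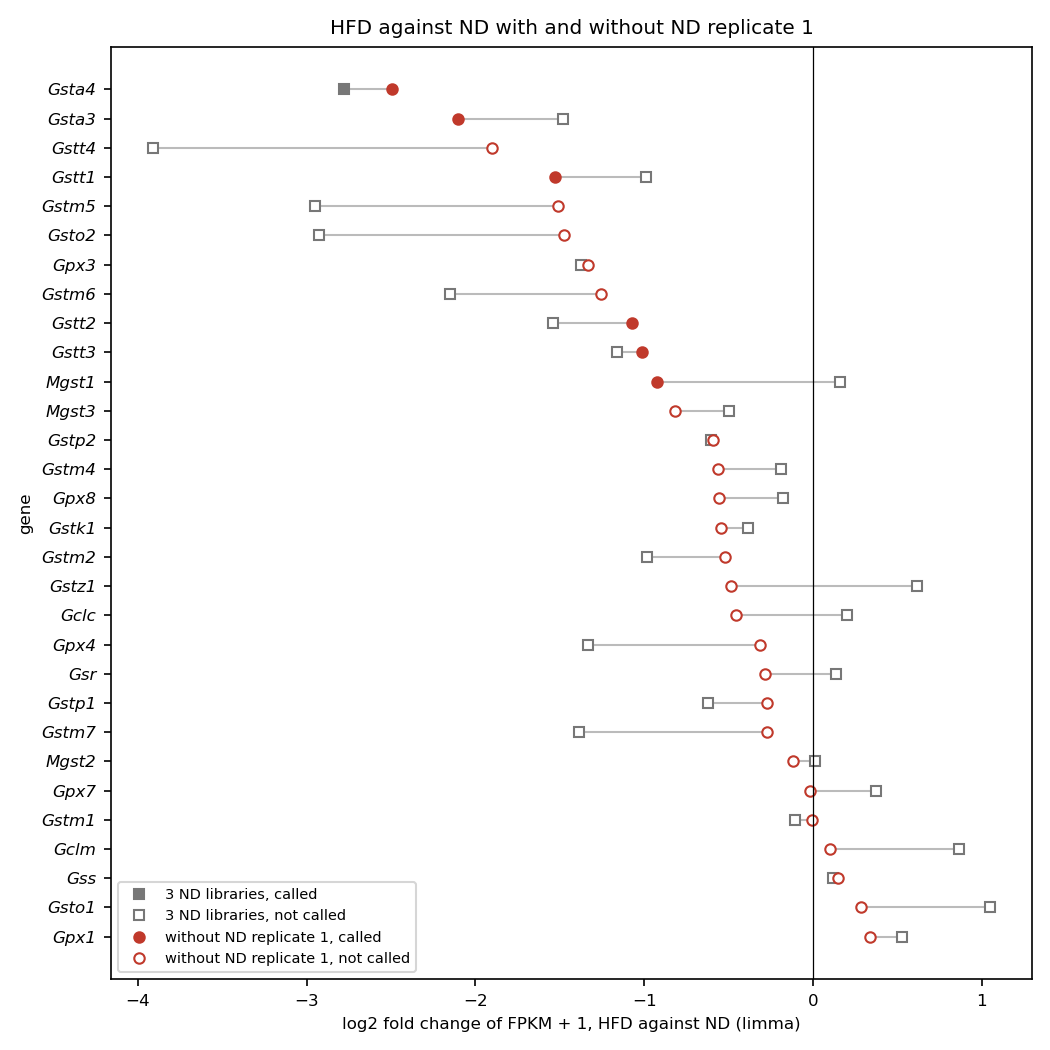
Log2 fold change (FPKM + 1, limma) of HFD against ND for the 30 members tested in both fits, with all 3 ND libraries (squares) and without ND replicate 1 (circles). Filled symbols were called. Gsta4 was called in both, and Gsta3, Gstt1, Gstt2, Gstt3 and Mgst1 were called without that library.

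Several members were highest in ND replicate 1 by a wide margin. Gpx4, which reduces phospholipid hydroperoxides and is also a structural protein of sperm, gave 3717, 486 and 412 FPKM in ND and 402, 330.5 and 350.3 FPKM in HFD. Its difference was -1.33 ± 0.89 (SE) with the library (limma adjusted p = 0.505) and -0.31 ± 0.15 (SE) without it (adjusted p = 0.220). Gstm5 gave 2677, 44.2 and 398 FPKM in ND and 118, 54.8 and 14.8 FPKM in HFD, with ND replicate 3 and HFD replicate 1, the other libraries with raised germ cell markers, next in order. Its difference was -2.95 ± 1.57 (SE) with ND replicate 1 and -1.51 ± 1.21 (SE) without it. The theta class gene Gstt4 gave 667, 2.33 and 30.4 FPKM in ND and 11.7, 0.0668 and 0.507 FPKM in HFD, in the same order of libraries, and was at 0.0768 to 0.609 FPKM in GT and TJ. Gsto2 followed that order too, at 195, 3.81 and 18.4 FPKM in ND and 11.1, 0.674 and 1.06 FPKM in HFD. The differences of Gstt4 and Gsto2 were -3.91 and -2.93 with ND replicate 1, and -1.90 ± 1.43 (SE) and -1.48 ± 1.06 (SE) without it. In GT and TJ, Gstm5 was at 27.2 to 48.0 FPKM, Gsto2 at 1.12 to 4.30 FPKM and Gstm7 at 3.26 to 6.89 FPKM. Gstm2 and Gstm6 were likewise highest in ND replicate 1 (327 and 87.8 FPKM). Gstm7 gave 180.3, 3.45 and 70.0 FPKM in ND and 12.7, 66.8 and 2.45 FPKM in HFD, where replicate 2, the library with epididymis markers, was highest. Gsta2 and Gpx6 reached 14.2 and 25.0 FPKM in ND replicate 1 and at most 2.14 FPKM elsewhere, so that they passed the filter on low values only through the ND group. None of these members was called in HFD against ND with limma in the test of all 6 libraries. With array weights, which called 27.3% of all genes lower, Gstm2, Gstm5, Gstm6, Gstt4 and Gsto2 were called lower. Gsta2 and Gpx6 were too, but genes tested only because ND was high could only come out lower in HFD. The calls of Gsta2 and Gpx6 therefore carry no information. The part of the reproductive tissue transcripts in the values of all these members was not tested.

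Gpx3, the secreted plasma peroxidase, varied widely within the HFD and TJ groups. It gave 451, 438 and 388 FPKM in ND and 104, 427 and 97.7 FPKM in HFD. ND values lay close together, replicate 1 included. HFD replicate 2, the library with epididymis markers, was about as high as ND, and the other HFD libraries were several times lower. The part of epididymis transcripts in that value was not tested. TJ replicate 2 was also high, at 518 FPKM against 168 and 127 FPKM in the other TJ libraries, and the GT libraries gave 85.6, 90.4 and 134 FPKM. Gpx3 was not called in any of the 5 comparisons in the tests of all their 6 libraries (limma adjusted p between 0.201 and 0.642). Under array weights it was called higher in TJ against GT, where 8.15% of all genes were.

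**Figure D3:**
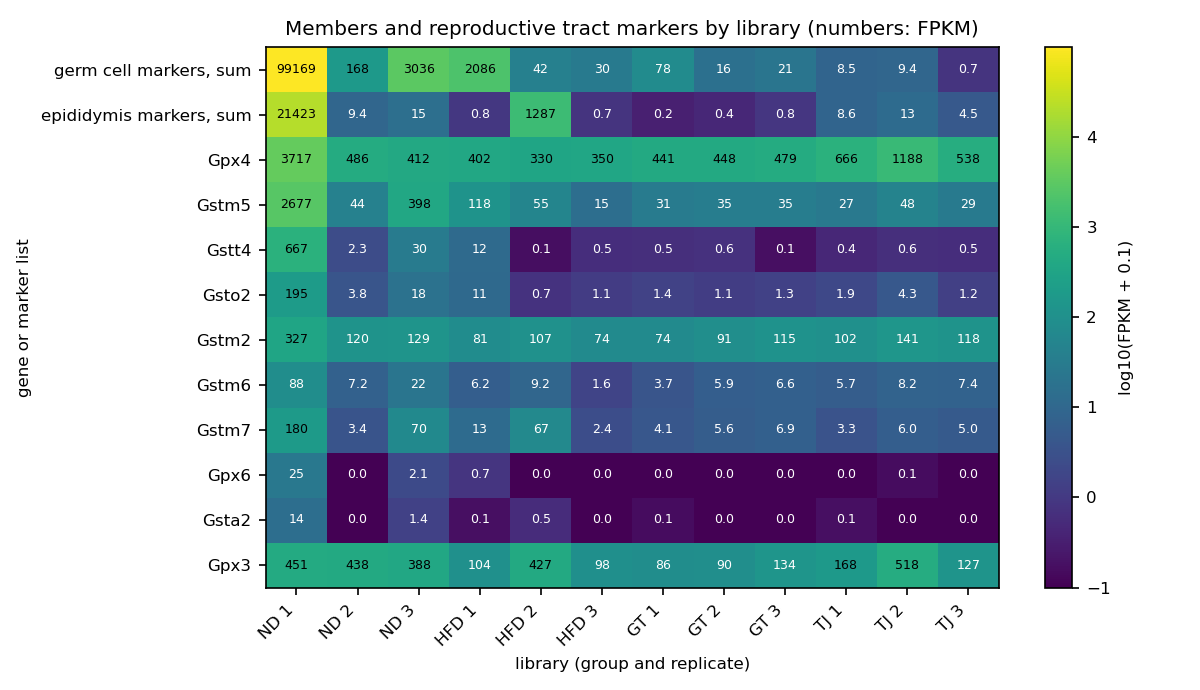
FPKM of 10 members and the summed FPKM of germ cell and epididymis markers in each of the 12 libraries, coloured by log10(FPKM + 0.1) with the FPKM printed in each cell. Gpx4, Gstm5, Gstt4, Gsto2, Gstm2, Gstm6, Gstm7, Gpx6 and Gsta2 are highest in ND replicate 1, whose germ cell markers sum to 99169 FPKM.

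In TJ against HFD, which asks what the herbal formula changed on the high-fat diet, 15 of 30 tested members were called higher in the TJ group and 0 lower. Over all 12807 genes tested, 7.41% were called higher and 11.1% lower with the same limma fit. The median difference of the members was 0.71 on the log2(FPKM + 1) scale, against -0.14 for all genes, and 20 members reached an unadjusted p under 0.05, as did 41.4% of all genes. The groups did not overlap, with every TJ library above every HFD library, for 19 members, against 20.1% of all genes tested. An exact two-sided permutation test of 3 libraries against 3 cannot give a p below 0.1, and these 19 members reached it.

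Among the alpha and theta classes, the largest difference was that of Gstt2. TJ libraries gave 35.4, 84.9 and 26.0 FPKM and HFD libraries 14.8, 14.1 and 12.1 FPKM, a difference of 1.59 ± 0.40 (SE) (limma adjusted p = 0.0387). Gstt1 gave 51.8, 121 and 40.6 FPKM in TJ against 25.7, 21.9 and 24.0 FPKM, a difference of 1.37 ± 0.37 (SE) (adjusted p = 0.0442). In GT these genes gave 18.4, 22.7 and 20.7 FPKM for Gstt2 and 28.8, 37.4 and 42.0 FPKM for Gstt1. Both were highest in TJ replicate 2, and the other TJ libraries were still above all HFD libraries. Gsta3, whose promoter core is printed above, gave 52.6, 96.4 and 41.1 FPKM in TJ against 21.2, 26.0 and 21.5 FPKM in HFD, a difference of 1.34 ± 0.30 (SE) (adjusted p = 0.0315). Gsta4 was at 5.99, 15.9 and 6.15 FPKM in TJ against 3.64, 2.42 and 3.54 FPKM in HFD and did not pass the test (1.18 ± 0.35 (SE), adjusted p = 0.0546), although the groups did not overlap. In GT, Gsta3 gave 28.5, 37.8 and 55.6 FPKM and Gsta4 1.88, 3.39 and 5.77 FPKM. Gstt3 did not pass either (adjusted p = 0.0792).

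All 3 microsomal transferases were higher in the TJ group. Mgst1 gave 1039, 1682 and 834 FPKM in TJ against 458, 476 and 416 FPKM in HFD, a difference of 1.33 ± 0.26 (SE) (limma adjusted p = 0.0271). Mgst2 and Mgst3, which can also join glutathione to leukotriene A4, differed by 0.83 ± 0.20 (SE) and 1.07 ± 0.30 (SE) (adjusted p = 0.0353 and 0.0479). Each had its 3 TJ libraries above its 3 HFD libraries, with TJ replicate 2 highest.

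Of the pi class, Gstp1 gave 112, 191 and 89.4 FPKM in TJ against 64.7, 55.1 and 54.0 FPKM in HFD, and Gstp2 gave 15.2, 15.7 and 11.4 FPKM against 5.93, 6.20 and 4.39 FPKM. The differences were 1.09 ± 0.28 (SE) and 1.21 ± 0.18 (SE) (limma adjusted p = 0.0393 and 0.0206). In the ND libraries Gstp1 was at 145, 84.6 and 57.7 FPKM and Gstp2 at 9.01, 10.2 and 7.45 FPKM, and Gstp2 gave 7.86, 10.4 and 8.23 FPKM in GT. These 2 neighbouring genes on chromosome 19 share sequence, since 54.3% of the 50-base words of Gstp2 transcripts also occur in other genes (49.1% in Gstp1), so the split of reads between them is uncertain. The same holds to a lesser degree for Gpx4, with 34.7% of words shared with Gpx4-ps2, and for Gstm1, with 18.9% shared with other genes.

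In the mu class, 2 of 6 tested members were called higher, Gstm1 and Gstm4. Gstm1 gave 368, 549 and 399 FPKM in TJ against 263, 272 and 249 FPKM in HFD (difference 0.72 ± 0.18 (SE), limma adjusted p = 0.0390). Gstm4 gave 35.9, 46.3 and 33.5 FPKM against 19.9, 18.4 and 18.1 FPKM (difference 0.98 ± 0.15 (SE), adjusted p = 0.0223), and the spread within both groups was small. ND levels were 325, 263 and 262 FPKM for Gstm1 and 12.4, 32.3 and 24.8 FPKM for Gstm4. Gstm2, Gstm5, Gstm6 and Gstm7 were not called, with differences of 0.46, -0.45, 0.48 and -1.39. The last 3 varied widely between the HFD libraries.

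The remaining single-gene classes and Gsto1 were also higher in TJ. Gsto1, an omega class enzyme with thiol transferase activity, gave 87.7, 83.7 and 92.4 FPKM in TJ against 57.7, 53.5 and 60.3 FPKM in HFD, a difference of 0.61 ± 0.12 (SE) (limma adjusted p = 0.0276). Gstz1 gave 329, 323 and 337 FPKM against 215, 229.9 and 201 FPKM, a difference of 0.61 ± 0.13 (SE) (adjusted p = 0.0284). For these genes TJ replicate 2 did not stand out. In ND, Gsto1 was at 8.72, 57.6 and 37.7 FPKM and Gstz1 at 29.6, 368 and 246 FPKM, both lowest in replicate 1. Gstk1, a transferase of mitochondria and peroxisomes also known for its part in the assembly of adiponectin, gave 36.9, 58.0 and 37.3 FPKM against 22.0, 20.1 and 22.9 FPKM, a difference of 0.96 ± 0.20 (SE) (adjusted p = 0.0279). It was at 22.8, 41.9 and 24.3 FPKM in ND and 25.6, 26.9 and 32.4 FPKM in GT.

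Of the 5 tested peroxidases, Gpx4 and Gpx7 were called higher in TJ. Gpx4 gave 666, 1188 and 538 FPKM in TJ against 402, 330.5 and 350.3 FPKM in HFD (difference 1.06 ± 0.29 (SE), limma adjusted p = 0.0455). Gpx7, a peroxidase of the endoplasmic reticulum, gave 30.0, 41.0 and 24.6 FPKM against 19.0, 14.0 and 16.6 FPKM (difference 0.89 ± 0.21 (SE), adjusted p = 0.0356). Gpx1, the main cytosolic peroxidase, ranged widely in TJ, at 1148, 2215 and 686 FPKM against 744, 589 and 735 FPKM in HFD, and the lowest TJ library lay within the HFD range. Its difference of 0.81 ± 0.40 (SE) did not pass the test (adjusted p = 0.165). Gpx1 was at 362, 619 and 476 FPKM in ND and 639, 590.0 and 504 FPKM in GT, and Gpx4 at 441, 448 and 479 FPKM in GT. Gpx8, also of the endoplasmic reticulum, was not called (0.69, adjusted p = 0.0763).

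None of the 4 genes of synthesis and recycling was called in any of the 5 comparisons as tested by limma on 6 libraries. With array weights, Gclc was called lower in HFD against ND, where 27.3% of all genes were. Gclc gave 11.0, 12.9 and 9.97 FPKM in HFD, 11.4, 11.4 and 11.5 FPKM in GT and 11.6, 8.69 and 11.9 FPKM in TJ, and the TJ difference from HFD was -0.07 ± 0.16 (SE) (adjusted p = 0.746). Gclm gave 26.8, 35.7 and 28.7 FPKM in HFD, 30.9, 24.9 and 24.6 FPKM in GT and 23.3, 17.2 and 27.0 FPKM in TJ, with a difference of -0.43 ± 0.20 (SE) (adjusted p = 0.143). Both genes overlapped between HFD and TJ, and neither had its highest library in TJ. Gss gave 14.4, 12.1 and 12.0 FPKM in HFD, 13.4, 13.2 and 12.0 FPKM in GT and 15.9, 22.5 and 15.2 FPKM in TJ, all 3 TJ libraries above the HFD libraries, with a difference of 0.43 ± 0.18 (SE) that did not pass the test (adjusted p = 0.113). Gsr, the reductase, gave 21.0, 22.4 and 22.8 FPKM in HFD, 20.0, 19.7 and 20.1 FPKM in GT and 19.4, 22.9 and 21.8 FPKM in TJ (difference -0.05 ± 0.12 (SE), adjusted p = 0.771). In the ND group these genes gave 3.27, 13.8 and 17.9 FPKM for Gclc, 4.89, 30.6 and 25.8 for Gclm, 12.2, 10.5 and 12.4 for Gss and 10.7, 23.9 and 30.7 for Gsr. Replicate 1 was the lowest ND library for Gclc, Gclm and Gsr, but not for Gss.

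**Figure D4:**
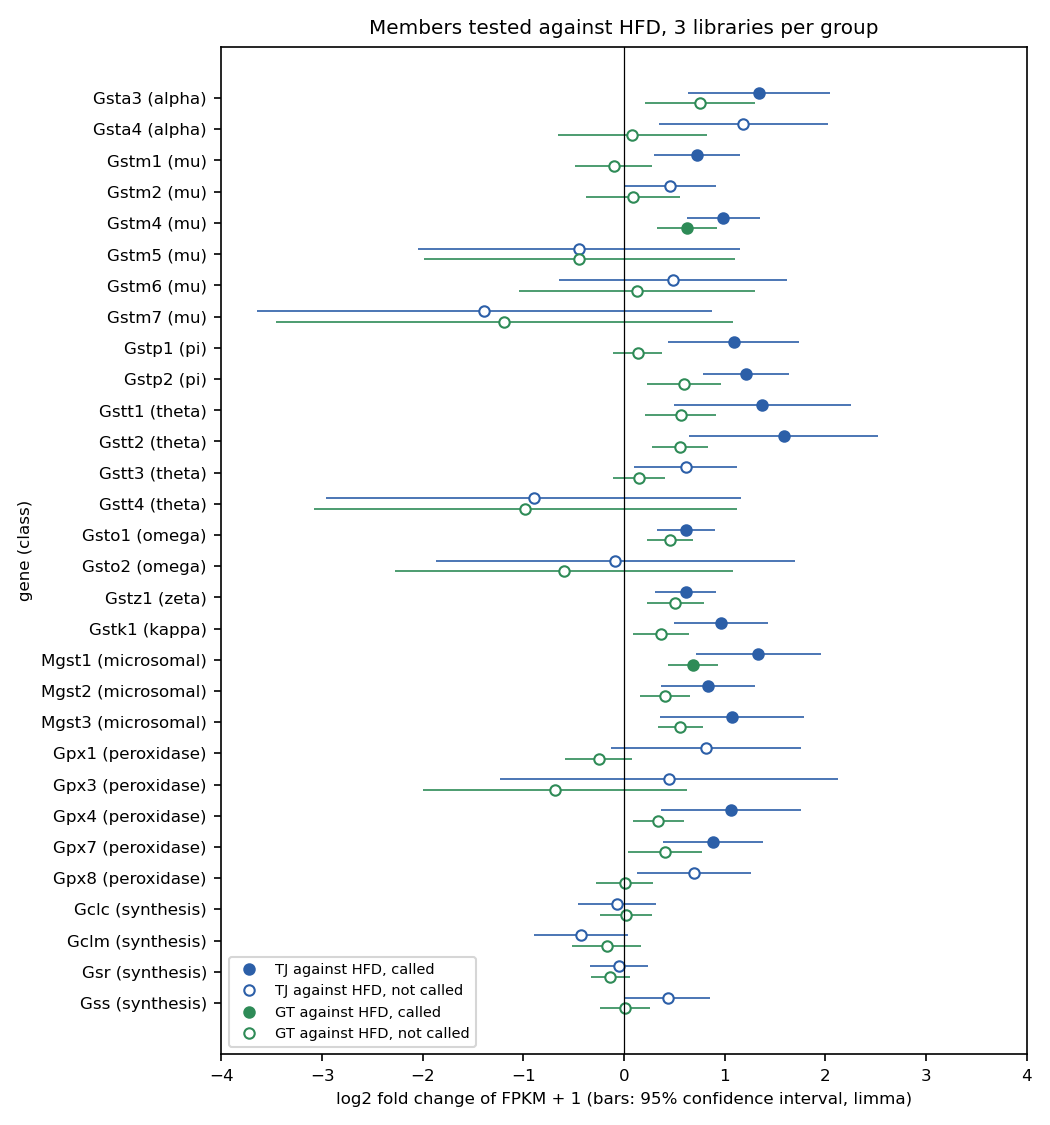
Log2 fold change (FPKM + 1, limma) with 95% confidence intervals of TJ against HFD (blue) and GT against HFD (green) for the 30 tested members, grouped by class. Filled points were called: 15 members in TJ, and Mgst1 and Gstm4 in GT.

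The calls in TJ against HFD depended on which libraries entered. Without any 1 of the 3 HFD libraries, or without TJ replicate 1, 0 members were called with limma, and none of all tested genes was, while 17 to 19 members had an unadjusted p under 0.05, as did 29.0% to 38.2% of all genes. Without TJ replicate 2, which led many of these genes, 15 members were called higher (6.19% of all genes), and without TJ replicate 3 it was 17 (9.67% of all genes). The median of the members stayed between 0.59 and 0.84 when 1 library was left out. Without both HFD replicate 2 and TJ replicate 2, 11 members were called higher (3.99% of all genes). With the transcript length trend removed, 8 were called higher (9.17% of all genes). The replicate block gave 6 (3.35% of all genes), no filter 3 (0.973%) and a fit of all 12 libraries 0 (0.00781%). Adipocyte marker sums were 32298 to 71904 FPKM in TJ and 17980 to 20533 in HFD (8 of 10 markers called higher), highest in TJ replicate 2. Macrophage marker sums were 750.0 to 2562 FPKM in TJ and 3824 to 5388 in HFD (7 of 10 called lower). Fibroblast and progenitor marker sums were 584 to 677 FPKM in TJ and 977 to 1031 in HFD (3 of 6 called lower). No marker of these lists was at 0 throughout a group, and the part of these shifts in the result was not tested.

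GT against HFD, the comparison with green tea extract, called 2 of 30 tested members higher and 0 lower with limma, against 1.83% and 1.81% of all 12766 genes tested. An unadjusted p under 0.05 was reached by 13 members and by 29.3% of all genes. Mgst1 gave 667, 732 and 777 FPKM in GT, a difference of 0.69 ± 0.10 (SE) from HFD (adjusted p = 0.0361). Gstm4 gave 24.9, 33.5 and 30.7 FPKM, a difference of 0.62 ± 0.12 (SE) (adjusted p = 0.0477). For both, every GT library lay above every HFD library. Gsto1, Gstt2 and Mgst3 had an adjusted p of 0.0493, 0.0489 and 0.0379, and their differences of 0.46, 0.56 and 0.56 were under a 1.5-fold change. The median over the members was 0.13, against -0.12 for all genes. The GT libraries lay above the HFD libraries without overlap for 12 members, against 12.3% of all genes tested. Both calls were lost without any 1 of the HFD libraries and without GT replicate 2 or 3, and 6 members were called higher without GT replicate 1 (2.92% of all genes). The calls of Mgst1 and Gstm4 were also lost with no filter, with all 12 libraries in the fit, with the replicate block and with no mean-variance trend. Adipocyte marker sums were 25789 to 30813 FPKM in GT (5 of 10 markers called higher than in HFD), and macrophage marker sums were 1402 to 3422 FPKM (0 of 10 called). Fibroblast and progenitor marker sums were 661 to 753 FPKM (2 of 6 called lower). Their part in these calls was not tested.

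TJ and GT were compared directly, since a call against HFD in one and not in the other does not show that they differ. None of 29 tested members was called by limma in TJ against GT, against 0.139% of 12187 genes called higher and 0.00821% called lower. An unadjusted p under 0.05 was reached by 12 members and by 24.6% of all genes. The smallest limma adjusted p of a member was 0.126, shared by Gstm1 and Gstp1. Gstm1 gave 196, 241 and 304 FPKM in GT and was 0.83 ± 0.23 (SE) higher in TJ. Gstp1 gave 63.8, 61.6 and 65.1 FPKM in GT, below all TJ libraries, with a difference of 0.96 ± 0.26 (SE) (adjusted p = 0.126). TJ libraries lay above GT libraries without overlap for 14 members, against 19.5% of all genes tested, and the median of the members was 0.51, against -0.03 for all genes. That median was 0.26 without TJ replicate 2 and 0.24 with the transcript length trend removed. Adipocyte marker sums lay higher in every TJ library than in any GT library, at the values given above. They were highest in TJ replicate 2, and Fabp4 made up most of them (21797 to 48299 FPKM in TJ, 17367 to 17589 in GT). Lep was lower in every TJ library (292 to 825 FPKM) than in any GT library (1117 to 1366). Plin1, Plin4 and Cidec overlapped. Of the 10 markers 0 were called, and their median difference was 0.16. The part of these markers in this shift was not tested. For Gsto1 and Gstz1, whose GT libraries gave 81.2, 82.9 and 72.8 and 280.1, 292 and 352 FPKM, the differences were small, 0.15 ± 0.13 (SE) and 0.10 ± 0.16 (SE), and both changed sign under at least 1 alternative.

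In TJ against ND, 0 of 32 tested members were called by limma in either direction (5 at an unadjusted p under 0.05), as were 0% of all 14251 genes tested (10.8% at an unadjusted p under 0.05). Without ND replicate 1 the count was still 0 (8 at an unadjusted p under 0.05, near the share of 23.8% of all genes). In the fit of all 11 libraries other than ND replicate 1, Gsto1, Gpx7, Gstm1 and Gss were called higher in TJ, 4 of 30 members against 9.53% of all genes. Gsta4 was lower in all 3 TJ libraries than in any ND library, with a difference of -1.59 ± 0.49 (SE) that did not pass the test (adjusted p = 0.446), and without ND replicate 1 it was -1.31 ± 0.41 (SE) (adjusted p = 0.155). TJ levels of Gsta3 and Gstt1 overlapped with ND levels.

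Other genes of glutathione handling came from a list of 42, of which 41 were in the table and 38 were tested. In HFD against ND, 3 were called higher and 0 lower by limma (8 at an unadjusted p under 0.05). The shares over all genes are those given above for each comparison. The 3 were Hpgds (a glutathione-dependent prostaglandin D synthase), and Anpep and Dpep2, peptidases that cut glutathione products outside the cell. Hpgds gave 0.181, 2.62 and 2.34 FPKM in ND and 31.5, 37.9 and 41.5 FPKM in HFD, a difference of 3.96 ± 0.50 (SE), and of 3.44 ± 0.16 (SE) without ND replicate 1. In TJ against HFD, 2 were called higher, the mitochondrial glutaredoxin Glrx5 (1.52) and the glutaredoxin Glrx3 (0.75). With 2 of 38 higher and 4 of 38 lower (17 at an unadjusted p under 0.05), beside 7.41% and 11.1% of all genes, the list did not exceed the background, and its median was 0.09 against -0.14 for all genes. The 4 called lower were Hpgds (-2.46), Anpep (-2.15), Bach1 (-0.95), a repressor at antioxidant response elements, and the cytosolic glutaredoxin Glrx (-0.69). Hpgds gave 18.0, 14.1 and 6.59 FPKM in GT and was the only one called lower in GT against HFD (-1.54), where none was higher (13 at an unadjusted p under 0.05). Nfe2l2 gave 51.0, 51.6 and 56.6 FPKM in HFD and 40.2, 36.9 and 43.5 FPKM in TJ, and its difference of -0.39 was not called (limma adjusted p = 0.0631). In TJ against GT and TJ against ND none was called (8 and 3 at an unadjusted p under 0.05). Without ND replicate 1, none was called in TJ against ND (6 at an unadjusted p under 0.05), and in HFD against ND 9 were called higher and 2 lower, against the 11.0% and 4.34% of all genes.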

How the data were processed

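Total RNA was taken from eWAT with TRIzol and mRNA libraries were made with a TruSeq kit. The authors mapped the reads with STAR to an Ensembl genome and computed FPKM with Cufflinks, masking noncoding regions and correcting for multireads and fragment bias, and deposited 1 table of FPKM values. The submitters' processing notes list CASAVA 1.8.2, STAR 2.4.0 and Cufflinks 2.1.1. The methods name the human genome, whereas all 23474 identifiers are mouse. Multiread correction divides reads between near-identical genes by an estimate. Use of strand is not stated in the sources used here, so reads of Gclm, Gpx8, Gss, Gsta3, Gstm5, Gsto1, Gsto2 and Gstz1 cannot be told apart from those of overlapping genes on the other strand. All 12 columns were used, 0 columns belonged to other samples, and 0 pairs of libraries held identical values.

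Symbols and coordinates (GRCm38) were looked up in GENCODE mouse release 21, where 22671 identifiers had a symbol. Each comparison was a two-sided limma test (version 3.58.1, R 4.3.3, lmFit and eBayes with trend) of log2(FPKM + 1) over its own 6 libraries, without covariates. The test covered genes whose mean over those libraries reached 1 FPKM, and p-values were adjusted by Benjamini-Hochberg over all of them. The study's own test ran on counts, which were not used here. A fold change on this scale understates the change of low genes. The script was tested on simulated data. Depth was estimated from the smallest FPKM steps of 2315 genes and is approximate, so no counting intervals were derived. Exact permutation tests used scipy 1.17.1, and tables and plots used python 3.11.15, pandas 2.3.3, numpy 2.4.6 and matplotlib 3.10.9.

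The members and lists were chosen with earlier results of these data known, although the rule for the members reads only gene symbols. Values in every library are given for Gclc, Gclm, Gss and Gsr, for the most abundant member of each class, for the 5 members with the largest differences among those called in a comparison, and for members whose value 1 library decides, of which some are given by their range in the groups that library is not in. Others are named after their values were seen. Of the pathway list, called genes are named up to 6, and Nfe2l2 was added after its values were seen. Deviations from the group means correlated over genes at 0.55, 0.34 and 0.12 between same-numbered libraries in HFD against ND, each over 0.1, so the replicate number was taken to pair them there, although no label names anything that a number shares. In the other comparisons at least 1 such correlation was below 0.1. Alternatives were another pseudocount (0.1), no filter, a minimum of 5 FPKM, other scalings, all 12 libraries in the fit, the replicate block, array weights, no mean-variance trend, no minimum fold change, removal of the transcript length trend (loess, span 0.5) and each library left out in turn.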

Additional observations from a re-analysis of the deposited data

How the results depend on the processing

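The number of members called moved with several settings, all with limma (in parentheses, the share of all genes called in that direction). In HFD against ND, where 1 member was called lower, a fit of all 12 libraries gave 2 (0.714%). Array weights gave 14 (27.3%), among them Gsta2 and Gpx6, which were tested only because ND was high. Removal of the length trend gave 0, the replicate block 0, and leaving out 1 library 0 to 6. In TJ against HFD, where 15 were called higher, omitting the filter gave 3 (0.973%), the replicate block 6 (3.35%), removal of the length trend 8 (9.17%), leaving out 1 library 0 to 17, and a fit of all 12 libraries 0 (0.00781%), with 13 members at an unadjusted p under 0.05, against 17.0% of all genes. In GT against HFD, where 2 were called higher, it was 0 with no filter, 5 with median-of-ratios scaling (2.72%), 5 with quantile normalization (3.20%), 0 from a fit of all 12 libraries, 0 with the replicate block, 0 with no mean-variance trend, 8 with array weights (4.07%), 5 with no minimum fold change (2.43%), 8 with the length trend removed (4.28%), and 0 to 6 with 1 library left out. In TJ against GT, array weights gave 6 higher and 1 lower, against 0 and 0 (8.15% and 5.46%). In TJ against ND, 0 to 3 were called lower with 1 library left out, the 3 without ND replicate 2 (7.84%). Under the replicate block, TJ against GT and TJ against ND still had 0 calls (13 and 4 at an unadjusted p under 0.05, against 22.8% and 9.14% of all genes). Same-numbered libraries correlated from -0.23 to 0.46 in the comparisons other than HFD against ND, so a number is only a name there. The cause of these shifts was not tested.

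Fits chosen after the data had been seen gave further counts. With the 11 libraries other than ND replicate 1, 5 members were called lower in HFD against ND (6.44%), 17 higher in TJ against HFD (9.49%), 0 in GT against HFD (6 at an unadjusted p under 0.05, against 17.5% of all genes) and 4 higher in TJ against ND (9.53%). With 8 libraries, also without ND replicate 3 and HFD replicates 1 and 2, 0 members were called in HFD against ND, TJ against HFD and GT against HFD (14, 18 and 6 at an unadjusted p under 0.05, against 28.4%, 30.6% and 10.3% of all genes). HFD against ND there sets 1 library against 1, and the lone ND and HFD libraries are assumed to vary like the GT and TJ libraries.

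Over all alternatives, the difference changed sign under at least 1 for 15 of 32 members in HFD against ND, 7 of 30 in TJ against HFD, 11 of 30 in GT against HFD, 8 of 29 in TJ against GT and 13 of 32 in TJ against ND. None of the 15 members called higher in TJ against HFD was among those 7. Mgst1 in HFD against ND was 0.16, and it was -0.071 with median-of-ratios scaling, -0.64 with array weights, -0.93 with 11 libraries and -1.36 with 8 libraries (1 against 1), and ranged from -0.93 to 0.87 with 1 library left out. Gpx3 in TJ against HFD was 0.44 and ranged from -0.16 (without TJ replicate 2) to 1.14 with 1 library left out. Gstm7 in TJ against HFD was -1.39, and 0.71 with 8 libraries. Median-of-ratios scaling moved the median of all genes in HFD against ND from 0.07 to -0.13, and quantile normalization moved it in TJ against HFD from -0.14 to 0.03. No member was called lower in TJ against HFD under any alternative run.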
